A study of Mus musculus with 16 samples.

Results

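Cells that detect double-stranded RNA pass the signal along a short chain of proteins, and 9 genes of that chain are described here: the helicases Ifih1, Ddx58 and Dhx58, the endosomal receptor Tlr3, the adaptor Mavs, the kinases Tbk1 and Ikbke, the transcription factor Irf3 and the RNA-editing enzyme Adar. They were taken by symbol from a table of 55401 genes, each symbol matched 1 gene, and all 9 passed the filter on low counts that left 18969 genes for testing. The cells were MC38, a mouse colon adenocarcinoma line grown in serum-containing medium, labelled either WT (sample titles with the tag gNC) or Ythdf2-KO (titles with the tag gY2). The labels name no stimulus, no tumour host and no other allele, and do not say whether a line was 1 clone. Read counts covered 3 WT and 3 Ythdf2-KO input libraries of fragmented polyadenylated RNA. Lists of enriched sites (peaks) covered immunoprecipitation with an antibody against N6-methyladenosine (m6A) in WT cells (3 libraries), the same in Ythdf2-KO cells (3 libraries), and RNA immunoprecipitation with an antibody against YTHDF2 in cells labelled WT (RIP, 2 libraries).

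As background, double-stranded RNA from viruses, or from a cell's own repeats and mitochondria, is bound in the cytosol by RIG-I (encoded by Ddx58) and MDA5 (Ifih1), which assemble MAVS on mitochondria, and in endosomes by TLR3. Both routes reach the kinases TBK1 and IKKε (Ikbke), which phosphorylate IRF3, and IRF3 then switches on interferon genes. ADAR1, the product of Adar, converts adenosines in double-stranded RNA to inosines and so keeps a cell's own duplexes from being sensed. In tumour cells this chain links endogenous RNA to interferon signalling. YTHDF2 is a cytoplasmic protein that binds m6A-marked mRNA and promotes its decay.

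Total counts ran from 45441281 to 50959555 per library, and levels are given as CPM, counts scaled to a common library size. A gene with no reads could still have stood at up to 3 counts, or 0.0582 to 0.0651 CPM, by counting error alone. The libraries did not group by label alone. On the first principal component, which held 51.4% of the variance, the WT libraries lay at -39.2 to -38.6, KO-labelled libraries 2 and 3 at 64.1 and 63.2, and KO-labelled library 1 at -10.4, so results are given with and without that library. By chi-square per degree of freedom between 2 libraries' counts, larger where they differ more, KO-labelled library 1 stood at 30.5 from WT library 1. From WT libraries 2 and 3 it stood at 48 and 48.8, and from KO-labelled libraries 2 and 3 at 73.4 and 73.5. The latter were at 9.89 from each other, and WT pairs at 8.97 to 30.9. Fits without KO-labelled library 1 thus rest on 2 KO-labelled libraries that lay close together. The Ythdf2 count itself was 55.6 to 68.5 CPM in WT and 59.8 to 67.9 CPM in the other group (edgeR log2 fold change 0.04, adjusted p = 0.809). Reads over the whole gene can come from unedited exons and leave the knockout unchecked, so the libraries are called KO-labelled. Whether the libraries of a group were separate cultures is not in the labels, and p-values here reflect spread among these samples that may be only technical. Of 12 colon epithelial markers, Epcam, Krt18 and Cldn7 were at 0 in all 6 libraries and the list summed to 1.32 to 2.39 CPM, so the defining markers of the labelled tissue of origin were absent or nearly so.

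Each of the 9 transcripts carried at least 1 m6A peak in WT cells, and the sequences below show 1 stretch inside such a peak for each gene, since these stretches are what the peak lists mark. All are RNA-sense, written 5′ to 3′ with T for U, from GENCODE M21 transcripts on mm10. Capitals mark matches to DRACH, the m6A consensus (D is A, G or T; R is A or G; H is A, C or T), in which the A before the C is the base that can be methylated. For Ddx58, Dhx58, Tlr3, Irf3 and Adar a WT peak covered the stop codon, and the last 60 coding bases are shown. For Ifih1, Mavs and Tbk1 the best-scored peak was searched for the 60 coding bases with most matches that lie unbroken in 1 exon, and for Ikbke 30 bases are from its single peak, in the 3′ untranslated region (3′ UTR). The Tbk1 peak is spread over 4 short blocks and left a single exon long enough, which holds no match.
Ifih1, chr2:62605641-62605700, minus strand: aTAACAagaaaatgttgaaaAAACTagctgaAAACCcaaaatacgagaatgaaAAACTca
Ddx58, chr4:40205810-40205869, minus strand: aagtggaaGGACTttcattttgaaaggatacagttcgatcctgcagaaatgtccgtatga
Dhx58, chr11:100695157-100695216, minus strand: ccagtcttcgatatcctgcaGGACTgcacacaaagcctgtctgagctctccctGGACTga
Mavs, chr2:131246364-131246423, plus strand: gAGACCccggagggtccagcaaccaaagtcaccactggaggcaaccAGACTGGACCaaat
Tlr3, chr8:45396913-45396972, minus strand: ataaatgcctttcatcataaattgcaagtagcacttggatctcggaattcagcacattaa
Tbk1, chr10:121552450-121552509, minus strand: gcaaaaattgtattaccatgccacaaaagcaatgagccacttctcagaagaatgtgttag
Ikbke, chr1:131255120-131255149, minus strand: TGACTgtcctcttgggaagcagctaGGACA
Irf3, chr7:45002287-45002346, plus strand: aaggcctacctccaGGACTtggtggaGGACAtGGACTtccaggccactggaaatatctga
Adar, chr3:89751116-89751175, plus strand: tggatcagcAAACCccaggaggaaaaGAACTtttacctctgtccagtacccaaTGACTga

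The stretches of Ifih1, Mavs, Tbk1 and Ikbke were picked for most matches and the others by position, so their match counts do not rank the genes. Ifih1 had 4 matches in its 60 bases, Irf3, Mavs and Adar had 3 each, Dhx58 had 2 and Ddx58 had 1. GGACT, a common form of the consensus, occurred 2 times in Dhx58, 2 times in Irf3 and 1 time in Ddx58. The Tlr3 and Tbk1 stretches held none, although other parts of their peaks did. Over the main transcripts of the 9 genes, DRACH occurred 26.0 times per kb inside WT m6A peaks (167 matches) and 20.8 times per kb outside them (560 matches). The reversed motif, which has the same base composition, was also denser inside, at 31.8 per kb against 26.5 per kb outside. By gene, the density inside peaks was above the density outside in all 9, from 23.3 against 22.7 per kb in Tbk1 to 49.6 against 20.4 per kb in Ikbke, whose peak is only 121 bases long. Over whole WT peaks Ifih1 (27.4 per kb), Ddx58 (27.5), Dhx58 (27.8) and Tlr3 (27.3) were alike, and Mavs was lowest at 16.7 per kb.

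The 9 genes differed widely in level in WT cells when set per kb of exon, the only scale on which genes are compared here. Exon length counts bases in any annotated transcript, 7050 for Ddx58 and 3345 for Mavs, where their main transcripts hold 3874 and 3057. The order of genes depends on this choice of length, and levels per kb of main transcript were not computed. By this length the adaptor Mavs was highest at 23.9 ± 2.03 CPM per kb (mean ± SD, n = 3, as throughout). Irf3 at 19.3 ± 0.714 and Ddx58 at 18.7 ± 0.545 CPM per kb followed and lay within their spread of each other. Adar at 14.6 ± 0.633 and Tbk1 at 13.2 ± 0.631 CPM per kb came next, with ranges of 1 SD that do not meet. Ifih1 at 6.84 ± 0.6 and Dhx58 at 6.80 ± 0.971 CPM per kb could not be told apart. The receptor Tlr3, at 4.55 ± 0.799 CPM per kb, and the kinase Ikbke, at 2.30 ± 0.207 CPM per kb, were lowest. On this scale RIG-I mRNA was the most abundant among the RNA helicase sensors, and among the IRF3 kinases Tbk1 mRNA exceeded Ikbke mRNA.

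**Figure D1:**
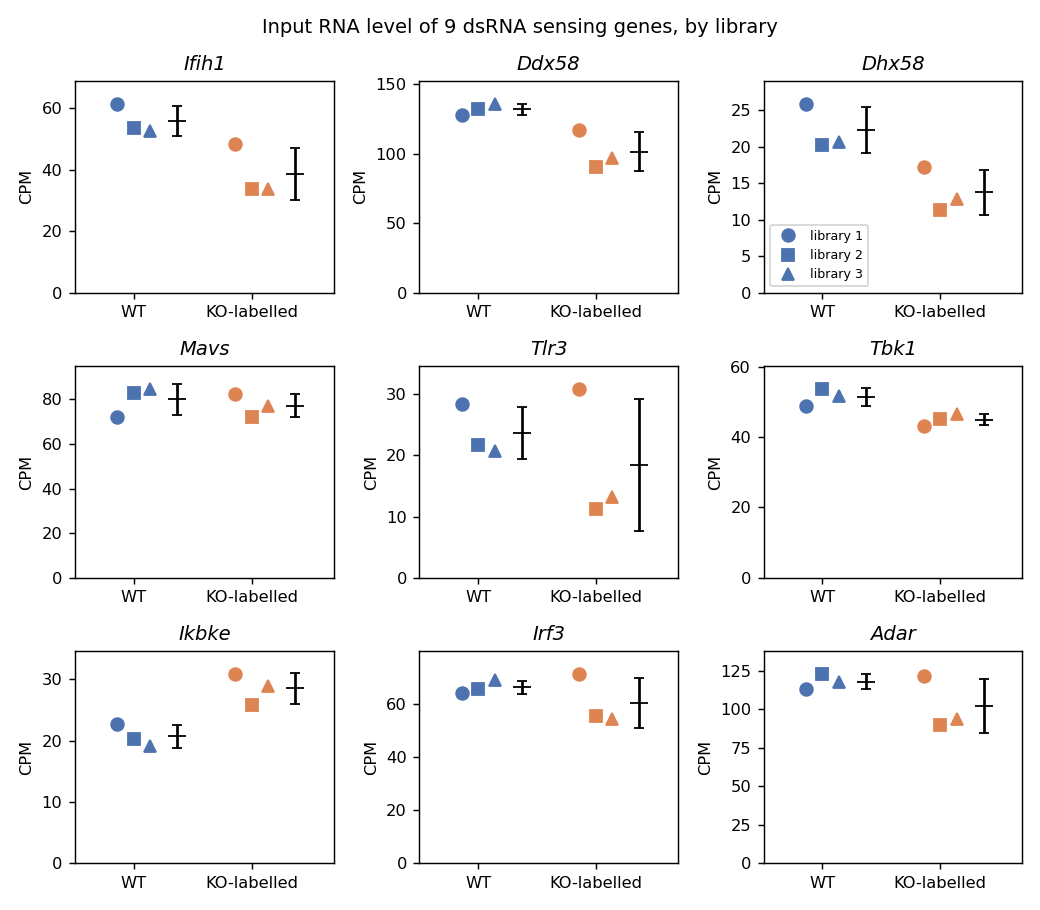
Level of each gene in CPM (vertical axes, each from 0) in the 3 WT and 3 KO-labelled input libraries, with marker shape for library number and bars for mean ± SD. The 3 helicases and Tbk1 sit lower in every KO-labelled library than in any WT library, Ikbke sits higher, and library 1 (circle) stands above the other KO-labelled libraries in every panel but that of Tbk1. Over all genes tested, 16.2% sit lower and 17.7% higher without overlap.

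The 3 cytosolic sensors were lower in the KO-labelled libraries, without overlap, but did not pass the test on all 6 libraries. Over all genes tested, 16.2% were lower without overlap. Ifih1 encodes MDA5, which binds long RNA duplexes. It was at 61.5, 53.5 and 52.5 CPM in WT libraries 1 to 3 and at 48.5, 33.7 and 33.8 CPM in KO-labelled libraries 1 to 3. All KO-labelled values lay below all WT values, with library 1 the nearest to WT. The means were 55.8 ± 4.9 and 38.7 ± 8.5 CPM (log2 fold change -0.53, SE 0.16, edgeR adjusted p = 0.0831). Without KO-labelled library 1 the log2 fold change was -0.72 (SE 0.09, edgeR adjusted p = 0.00091). In bulk RNA, fewer cells expressing a gene and less of its RNA per cell cannot be told apart.

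Ddx58 encodes RIG-I, which binds short duplexes with a 5′ triphosphate. Its values were 128, 132 and 136 CPM in WT and 117, 90.1 and 96.8 CPM in the KO-labelled libraries. The WT libraries lay close together, and every KO-labelled library was below them. On the log2 scale the difference was -0.38 (SE 0.10, means 132 ± 3.84 and 101 ± 13.9 CPM, edgeR adjusted p = 0.0715), and without KO-labelled library 1 it was -0.50 (SE 0.06, edgeR adjusted p = 0.00121).

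Dhx58 encodes LGP2, a helicase that lacks signalling domains and tunes the other sensors. It was at 25.9, 20.2 and 20.7 CPM in WT and at 17.2, 11.3 and 12.8 CPM in the KO-labelled libraries. Library 1 was the highest within each group, and the groups did not overlap. The log2 fold change was -0.69 (SE 0.18, means 22.3 ± 3.18 and 13.8 ± 3.04 CPM, edgeR adjusted p = 0.0676), the largest size among the 9 genes with all 6 libraries, and -0.88 without KO-labelled library 1 (SE 0.14, edgeR adjusted p = 0.00275). Its antisense neighbour Dhx58os had 0.514 and 0.512 CPM on average in the groups. The strand setting of the counting is not given, and the share of that gene's reads in the Dhx58 count was not tested.

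The helicases also varied together. Over the 6 libraries, log2 CPM of Ifih1 had a Pearson r of 0.98 with Dhx58 and of 0.94 with Ddx58, a description over libraries that share depth and group differences. The genes most like Ifih1 by this measure, among 11601 genes with a mean of at least 5 CPM, were Ido2 (r = 0.999) and Arsk (r = 0.9985). Those most like Ddx58 were Cyp27a1 and Ap3d1 (r = 0.9975 each). Such values are common in 6 libraries: 8.5% of the genes compared reached an r of 0.9 with Ifih1 and 9.9% with Ddx58.

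Mavs, the adaptor on which both helicase sensors converge, did not pass the test with or without KO-labelled library 1. It was at 72.2, 83.0 and 84.7 CPM in WT and at 82.2, 72.2 and 77.1 CPM in the KO-labelled libraries. The groups overlapped, with the same lowest value to the precision shown. The log2 fold change was -0.05 (SE 0.09, edgeR adjusted p = 0.73) with all libraries and -0.10 (SE 0.08, edgeR adjusted p = 0.403) without KO-labelled library 1.

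Tlr3, the receptor for duplex RNA in endosomes, depended most on a single library. Its values were 28.5, 21.7 and 20.8 CPM in WT and 30.9, 11.3 and 13.2 CPM in the KO-labelled libraries. KO-labelled library 1 was the highest of all 6, and the other KO-labelled libraries were the lowest, so the groups overlapped. With all libraries the log2 fold change was -0.36 (SE 0.37, means 23.7 ± 4.16 and 18.5 ± 10.8 CPM, edgeR adjusted p = 0.552). Without KO-labelled library 1 it was -0.95 (SE 0.16, edgeR adjusted p = 0.00356), the largest size of the 9 genes in that fit.

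The kinases that phosphorylate IRF3 had fold changes of opposite sign, and neither passed the test on all 6 libraries. Tbk1, the kinase present in most cell types, was at 48.8, 53.7 and 51.8 CPM in WT and at 43.2, 45.2 and 46.5 CPM in the KO-labelled libraries. Ikbke, its relative that is induced by inflammatory signals, was at 22.8, 20.3 and 19.1 CPM in WT and at 30.9, 25.8 and 28.9 CPM in the KO-labelled libraries. Neither kinase's groups overlapped, with Tbk1 lower and Ikbke higher in every KO-labelled library. Of all genes tested, 16.2% were lower and 17.7% higher in this way. For Tbk1 the log2 fold change was -0.19 (SE 0.08, edgeR adjusted p = 0.146), and for Ikbke it was 0.46 (SE 0.11, edgeR adjusted p = 0.0578). Ikbke passed without KO-labelled library 1 at a smaller fold change of 0.40 (SE 0.10, edgeR adjusted p = 0.0213), while Tbk1 did not (-0.16, SE 0.07, edgeR adjusted p = 0.102).

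Within a library the Ikbke to Tbk1 ratio of CPM was 0.467, 0.378 and 0.368 in WT and 0.716, 0.571 and 0.622 in the KO-labelled libraries. The ratio was higher in each KO-labelled library than in any WT library, and KO-labelled library 1 was the highest. The means were 0.404 ± 0.0541 and 0.636 ± 0.0735, a log2 difference of 0.66. An exact two-sided permutation test gave p = 0.1, the smallest that 3 libraries against 3 can give. With Tbk1 lower and Ikbke higher in every KO-labelled library, that outcome was fixed in advance, so the test adds no support. In contrast to the helicases, neither kinase had KO-labelled library 1 as the one nearest to WT. Their log2 CPM had a Pearson r of -0.93 with each other over the 6 libraries, as a description.

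Irf3 and Adar, at the end of the chain and at its brake, overlapped between groups. Irf3 was at 64.2, 65.9 and 69.0 CPM in WT and at 71.4, 55.7 and 54.4 CPM in the KO-labelled libraries. Adar was at 113, 123 and 118 CPM in WT and at 122, 89.9 and 93.9 CPM in the KO-labelled libraries. In both genes KO-labelled library 1 was at or near the top of all 6 libraries and the other KO-labelled libraries were the lowest. With all libraries the log2 fold change was -0.13 (SE 0.11, edgeR adjusted p = 0.472) for Irf3 and -0.22 (SE 0.12, edgeR adjusted p = 0.272) for Adar. Without KO-labelled library 1 these were -0.27 (SE 0.06, edgeR adjusted p = 0.0137) and -0.36 (SE 0.06, edgeR adjusted p = 0.00445). The genes most like Adar over the 6 libraries were Strn4 (r = 0.999) and Atp6v0a2 (r = 0.9977), and 8.6% of the genes compared reached an r of 0.9 with it. Irf3 shares its locus with the antisense gene Bcl2l12 (11.2 and 13.3 CPM), and Adar with Chrnb2 (5.78 and 3.64 CPM). No source used here gives the strand setting of the counting, and reads of these neighbours cannot be separated from those of Irf3 and Adar.

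As a set, 0 of 9 genes passed edgeR at an adjusted p of 0.05, where 1.54% of all genes tested were called lower and 2.99% higher. At an unadjusted p under 0.05 there were 5 (Ifih1, Ddx58, Dhx58, Tbk1 and Ikbke), against 29.5% of all genes. The groups did not overlap in 4 genes that were lower (16.2% of all genes) and in 1 that was higher (17.7%). DESeq2 called the 3 helicases lower (7.10% of all genes) and Ikbke higher (11.8%). Without KO-labelled library 1, edgeR called 6 genes lower (16.1% of genes in that fit) and Ikbke higher (19.3%), and with any other single library left out it called 0. The median log2 fold change of the 9 genes was -0.22, and -0.36 without that library, beside -0.01 and -0.02 over all genes tested. In all, 8 of the 9 fold changes were below 0, with Ikbke the exception, beside 9611 of 18969 over all genes tested. Several of the 9 varied together over the libraries (r of 0.87 for Ifih1 with Adar), so they are not separate observations.

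**Figure D2:**
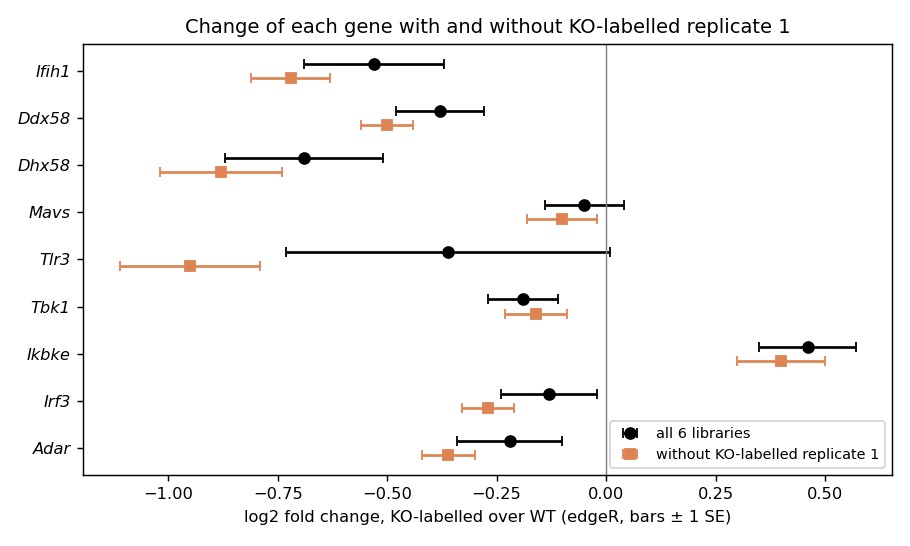
log2 fold change of each gene, KO-labelled over WT, with bars of 1 SE, from edgeR with all 6 libraries and without KO-labelled library 1. Leaving the library out moves Tlr3 from -0.36 to -0.95 and shortens most error bars, while Mavs (-0.05 to -0.10), Tbk1 (-0.19 to -0.16) and Ikbke (0.46 to 0.40) move little.

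Another summed level was lowest in KO-labelled libraries 2 and 3, with library 1 near WT, as in Irf3 and Adar. The 11 fibroblast markers summed to 2680, 2120 and 2160 CPM in WT and to 2640, 1500 and 1530 CPM in the KO-labelled libraries. Most of this was Col3a1, at 2310, 1790 and 1840 CPM in WT and 2350, 1240 and 1280 CPM in the KO-labelled libraries, while Pdgfra ran the other way, at 138, 184 and 183 CPM in the KO-labelled libraries. No marker of the list was at 0 in all 6 libraries, but Thy1, Acta2 and Postn were at 0 in at least 1. Of the 9 tested, 1 was called lower with all libraries (1.54% of all genes). Without KO-labelled library 1, 7 were called lower (16.1% of genes in that fit) and 1 higher (19.3%). The 21 leukocyte and endothelial markers, with Cd8a, Klrb1c, Adgre1 and Ly6g at 0, summed to 71.2 to 90.4 CPM in WT and to 55.2, 133 and 127 CPM in the KO-labelled libraries, and most of it was Cd68 (122 CPM in KO-labelled library 2). Of the 7 tested, 1 was called lower with all libraries (1.54% of all genes). Without KO-labelled library 1, 3 were called lower (16.1% of genes in that fit) and 2 higher (19.3%). The part of these lists in the results above was not tested.

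The wider pathway was described with a list of 97 further genes, of which 87 were tested: 5 were called lower (1.54% of all genes), 2 higher (2.99%) and 80 did not pass, with a median log2 fold change of 0.01. DESeq2 called 15 lower (7.10% of all genes) and 14 higher (11.8%). Without KO-labelled library 1, edgeR called 25 lower (16.1% of genes in that fit) and 23 higher (19.3%). Unlike the 9 genes, whose fold changes were nearly all below 0, the list was split, with 41 below 0 and 46 above. With any single library other than KO-labelled library 1 left out, edgeR called 0 or 1 lower and 0 higher. Zbp1 missed the threshold without KO-labelled library 3 (adjusted p = 0.0585) or WT library 2 (adjusted p = 0.105), and the other called genes without any of those 5 libraries. Called genes came from 4 of the 8 role groups. Each of them also passed without KO-labelled library 1, with edgeR adjusted p from 6.6e-05 (Zbp1) to 0.00739 (Oas3).

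Among RNA sensor co-factors and ubiquitin ligases, 1 of 11 was called lower (1.54% of all genes), with a median of -0.20. Without KO-labelled library 1, 5 were called lower (16.1% of genes in that fit) and 1 higher (19.3%). The gene called with all 6 libraries was Ddx60, a helicase that assists RIG-I. It was at 50.5, 41.1 and 41.4 CPM in WT and 28.7, 20.6 and 20.8 CPM in the KO-labelled libraries (log2 fold change -0.92, edgeR adjusted p = 0.0341). Other binders of double-stranded RNA gave 2 lower of 18 (1.54% of all genes), with a median of -0.13. In the fit without KO-labelled library 1, 9 were called lower (16.1% of genes) and 3 higher (19.3%). Zbp1, a sensor of Z-form nucleic acid, had the largest fold change of the list with all 6 libraries, from 68.7, 60.5 and 58.2 CPM to 22.2, 18.0 and 18.9 CPM (log2 fold change -1.66, edgeR adjusted p = 0.00719). There KO-labelled library 1 lay with the other KO-labelled libraries and far below WT. Without that library Zbp1 was at -1.76, and Tnfaip3, an inhibitor of NF-kB signalling named here after its values were seen, had a larger fold change of 1.96 (1.58 and edgeR adjusted p = 0.0642 with all 6). Oas3, which makes the activator of RNase L, went from 127 ± 9.52 to 96.0 ± 2.64 CPM (log2 fold change -0.40, edgeR adjusted p = 0.0381).

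Transcription factors and interferon receptor signalling gave 2 lower (1.54% of all genes) and 1 higher (2.99%) of 13, with a median of 0.01. Without KO-labelled library 1, 5 were called lower (16.1% of genes in that fit) and 3 higher (19.3%). Irf7, the factor that amplifies interferon production, fell from 33.1 ± 2.49 to 20.1 ± 2.85 CPM (log2 fold change -0.72, edgeR adjusted p = 0.0344). Usp18, which restrains signalling at the interferon receptor, fell from 89.6 ± 0.633 to 57.2 ± 4.56 CPM (log2 fold change -0.65, edgeR adjusted p = 0.0200). Ifnar1, a chain of that receptor, rose from 43.5 ± 3.33 to 58.9 ± 4.78 CPM (log2 fold change 0.44, edgeR adjusted p = 0.0497). Stat2, the most abundant of this group per kb of exon, was at 239 ± 18.6 and 168 ± 25.2 CPM and did not pass (log2 fold change -0.51, edgeR adjusted p = 0.0543).

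Interferons and direct IRF3 target genes gave 1 higher of 8 (2.99% of all genes), with a median of -0.12. Without KO-labelled library 1, 3 were called lower (16.1% of genes in that fit) and 3 higher (19.3%). Ifit2, an interferon-induced RNA-binding protein gene that IRF3 can switch on directly, was at 37.1, 36.0 and 36.3 CPM in WT and 50.7, 56.2 and 55.6 CPM in the KO-labelled libraries (log2 fold change 0.57, edgeR adjusted p = 0.0227). Isg15, the most abundant of this group per kb, was at 242 ± 23.8 and 234 ± 22.7 CPM (log2 fold change -0.05, edgeR adjusted p = 0.78). The interferon genes of the list were barely present, unlike Ifit2 and Isg15. Ifnb1, encoding interferon beta, had between 0 and 9 reads per library and was not tested. Ifna4, Ifnl2 and Ifnl3 had 0 reads in all 6, which allows up to 0.0651 CPM.

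The remaining groups held no called gene by edgeR with all 6 libraries, and their most abundant genes per kb did not pass. By mean level Tab2 lay within 1 SD of Optn, and Cd14 within 1 SD of Unc93b1, so those orders are not separated. Mitochondrial adaptor partners (12 tested, median 0.19) were led by Casp8 (log2 fold change 0.09, edgeR adjusted p = 0.395) and inhibitors of the pathway (12 tested, median 0.19) by Pcbp1 (0.16, edgeR adjusted p = 0.336). Kinase adaptors and NF-kB kinases (9 tested, median -0.06) were led by Tab2 (0.25, edgeR adjusted p = 0.164) and the endosomal branch (4 tested) by Cd14 (-0.11, edgeR adjusted p = 0.682). Without KO-labelled library 1, 5 adaptor partners, 5 inhibitors and 1 gene of the endosomal branch were called higher. In that fit 1 adaptor partner and 1 inhibitor were called lower. Of the kinase adaptors and NF-kB kinases, 2 were called higher and 1 lower. Over all genes in that fit, 19.3% were called higher and 16.1% lower. Among sensor co-factors, G3bp1 was the most abundant per kb (0.10, edgeR adjusted p = 0.455), and among duplex binders Oas1a (-0.03, edgeR adjusted p = 0.804).

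**Figure D3:**
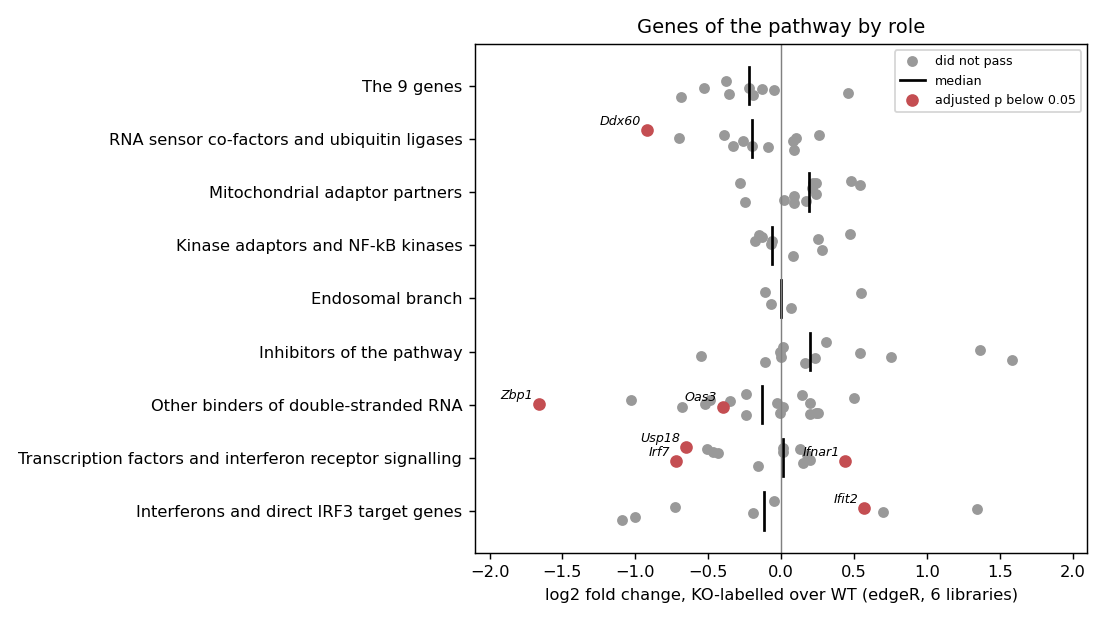
log2 fold change (KO-labelled over WT, edgeR, 6 libraries) of the 9 genes and of 87 further pathway genes by role, each point a gene, with the median as a bar and genes at an adjusted p below 0.05 in red. Of the further genes 5 are called lower (1.54% of all genes) and 2 higher (2.99%), none of them in the mitochondrial adaptor, kinase adaptor, endosomal or inhibitor groups.

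On the RNA itself, all 9 genes had a WT m6A peak, against 47.2% of all genes tested, 7 had a peak in the KO-labelled m6A list (43.6%) and 7 in the YTHDF2 RIP list (33.0%). Peaks are called more often in abundant genes. Among the 8476 genes with a WT level of at least 20.7 CPM, that of the lowest of the 9, the shares were 77.3%, 74.7% and 52.3%. Dhx58 and Ikbke lacked a peak in both the KO-labelled m6A and the RIP list. Each list stands for a whole group and carries no replicate error, so differences between lists have no test, and no peak in a list does not show that the mark or the binding was absent.

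The 9 genes held 20 WT m6A peaks, 14 KO-labelled m6A peaks and 19 RIP peaks. Of the WT peaks, 14 (70.0%) shared at least 1 exonic base with a KO-labelled peak, against 80.5% for other genes tested. In the other direction 13 of 14 KO-labelled peaks (92.9%, other genes 89.3%) met a WT peak, and the exception was a Tbk1 peak near the end of its coding sequence (score 2.4e-07). A peak's score is the authors' deposited value, read here as a p-value. The WT peaks that met none were in Dhx58 (score 4e-16), Ikbke (4e-11), Tlr3 (2.5e-18 and 6.3e-14) and Adar (1.3e-12 and 1e-07).

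**Figure D4:**
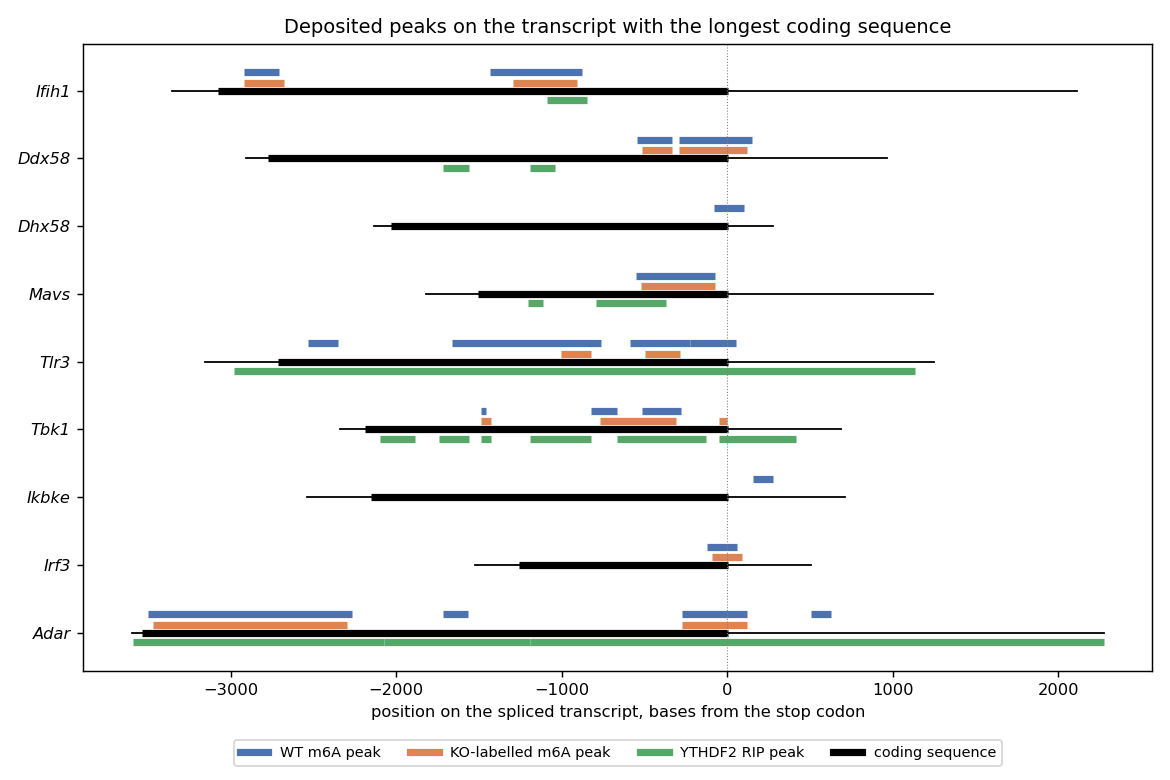
Peaks of the 3 lists along the main transcript of each gene, in bases from the stop codon (at 0), with the coding sequence drawn as a thicker bar. RIP peaks cover most of Tlr3 and Adar and large parts of Tbk1, while Dhx58 and Ikbke show a single WT m6A peak each.

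The sensors carried m6A peaks of different kinds. Ddx58 had the strongest score of all 9 genes (1e-146), in a peak of 451 exonic bases at chr4:40205663-40208191 that runs from the last coding exons over the stop codon shown above into the 3′ UTR. A KO-labelled peak covered 421 of those bases (score 1e-125), so the site was called with nearly the same bounds in both groups. The 4 RIP peaks of Ddx58 shared 0 bases with its m6A peaks, and 2 of them lay on exonic sequence that the main transcript does not include. Ifih1 had a peak near the start of its coding sequence (chr2:62645567-62645777, score 7.9e-14) and a stronger one farther along it (chr2:62605546-62608264, score 2e-36), which holds the sequence with 4 DRACH matches. Its only RIP peak shared 211 bases with the latter, and the stretch printed lies in the m6A peaks of both groups and in the RIP peak. Dhx58 had 1 WT peak over its stop codon (chr11:100695062-100695241), with GGACT at 2 places in the last 60 coding bases.

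Mavs had 1 m6A peak within its coding sequence in each group, sharing 449 bases (scores 1.3e-73 in WT and 2e-62 in the KO-labelled list). A RIP peak shared 180 bases with the WT peak. These bases lie upstream of the stop codon, and the Mavs 3′ UTR had no peak in any list.

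Tlr3 and Adar were the most widely covered by YTHDF2 RIP peaks. A single deposited RIP peak of 4339 exonic bases took in 83.3% of the exon bases of Tlr3 (score 3.2e-99), from the 5′ UTR to the 3′ UTR, and only 365 of the 6267 genes with RIP peaks were covered more. RIP peaks covered 77.9% of the exon bases of Adar, with 504 genes covered more, and 55.1% of Tbk1, with 1266 more. The median over genes with a RIP peak was 19.9% and the upper quartile 47.8%. The others lay below that median, at 15.2% in Mavs, 9.0% in Ddx58, 3.5% in Irf3 and 2.9% in Ifih1. In Tlr3 and Adar every base of the WT m6A peaks fell inside RIP peaks, which at such coverage says little about position.

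In m6A peaks too, Tlr3 (34.0% of exon bases) and Adar (23.3%) were the most covered of the 9 genes in WT, beside a median of 11.5% over genes with a peak. In the KO-labelled list the covered share of Tlr3 was 7.5%, in 2 peaks of 180 and 211 bases in place of 4, and that of Adar 19.2%. The Tlr3 count was lower in KO-labelled libraries 2 and 3, and how far the input level sets the number of peaks called was not tested. For Tbk1 the order was the other way, with 16.1% covered in WT and 21.5% in the KO-labelled list.

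The Adar peak at chr3:89734850-89736078 was a wide one, with 1229 bases in a single exon of 1432 bases (85.8% of it). Of these bases, 708 lie before an inner annotated start codon, at position 89735558 of the same exon. A peak nearly as wide, of 1169 bases inside the former, was in the KO-labelled list (scores 6.3e-99 in WT and 1e-110 in the KO-labelled list). The other strong Adar peak covered the stop codon shown above, with the same bounds in both groups (chr3:89750727-89751289, scores 1e-103 and 1.6e-73).

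Among the kinases, Ikbke had 1 small WT peak of 121 bases in its 3′ UTR and no other, while Tbk1 had 3 WT m6A, 3 KO-labelled m6A and 6 RIP peaks. The Tbk1 stretch printed above lies in all 3 lists although it holds no DRACH match. Irf3 had a peak over its stop codon in both m6A lists (scores 4e-19 in WT and 7.9e-23 in the KO-labelled list). Its other m6A peak (chr7:44998276-44998609) had the same coordinates in both groups and shared 0 bases with the main transcript. Of its 330 exonic bases, 284 lay in the first exon of another coding transcript and 46 in a noncoding one, and the only Irf3 RIP peak, at a weak score of 1.1e-05, overlapped it by 91 bases.

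Set beside the counts, presence of a peak could hardly sort the genes by their change, since all 9 had a WT m6A peak. Only Dhx58 and Ikbke lacked a peak in the KO-labelled m6A and RIP lists. Dhx58, with the lowest log2 fold change (-0.69), and Ikbke, with the highest (0.46), were alike in the lists: 1 WT m6A peak, no KO-labelled m6A peak and no RIP peak. Tlr3, Adar and Tbk1, the genes most covered by RIP peaks, had log2 fold changes of -0.36, -0.22 and -0.19 with all libraries. Of all 9 genes 8 were below 0, so these signs do not set the 3 genes apart. Mavs, with m6A and RIP peaks in its coding sequence, had -0.05. With 9 genes and 1 list per group these are descriptions of the values and carry no test.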

How the data were processed

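The authors deposited gene-level counts of reads, not normalized, for the 6 input libraries and 3 peak lists, 1 per group, whose score column was read as a p-value because all deposited values lie near 0. The submitters' processing notes name HISAT2, HOMER, ChIPseeker and mm10. Not given in the sources used here are the counting tool and its strand setting, the peak caller, and the way libraries were pooled for peaks.

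Counts were tested with edgeR 4.0.16 in R 4.3.3 (TMM, filterByExpr, quasi-likelihood F test, Benjamini-Hochberg over 18969 genes, threshold 0.05). CPM use TMM-scaled library sizes, SE is the fold change divided by the square root of F, and log2 CPM used a prior count of 2. Alternatives were DESeq2 1.42.0, its size factors in edgeR, no filter on low counts, a replicate block, each library left out, peak overlaps of at least 50% of a peak's bases, and peaks with a score of at most 1e-05. The test was checked on simulated counts. For positions, each gene's GENCODE M21 transcript with most coding bases was used, and overlaps count exonic bases on the same strand.

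The members and lists were chosen with earlier results of these data known. Besides the 9 genes, the text names pathway genes at an adjusted p below 0.05, the gene with the highest WT level per kb in each role, and the 2 genes most like Ifih1, Ddx58 and Adar. The interferon genes near 0, Tnfaip3, Optn, Unc93b1, antisense neighbours and marker genes were named outside that rule, after their values were seen.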

Additional observations from a re-analysis of the deposited data

How the results depend on the processing

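The 9 genes kept the sign of their fold change under every alternative run, though for Mavs barely, at -0.0 without KO-labelled replicate 2. Their count called lower was 3 by DESeq2 and 0 to 6 with 1 library left out, and called higher 1 and 0 to 1, and among the fits with 1 library left out only that without KO-labelled replicate 1 gave calls. Of the further pathway genes, lower calls were 15 by DESeq2, 2 with no filter and 0 to 25 with 1 library left out, and higher calls 14, 1 and 0 to 23, with 1 under DESeq2 size factors. Over all genes, lower calls were 1346, 41 and 0 to 3144, and higher calls 2244, 70 and 0 to 3782. With at least 1 shared base, 10 of 19 RIP peaks met a WT m6A peak (52.6%, other genes 34.2%). At an overlap of 50% of bases, 4 of 19 did (21.1%), near the 18.5% of other genes.

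Same-numbered libraries had deviations correlated at 0.05, 0.11 and 0.05, so the numbers were not taken to pair them, although each library correlated best with its own number, as a hint from the data. With a replicate block, 0 of the 9 genes were called in either direction, 3 pathway genes lower and 0 higher, and 26 of all genes lower and 45 higher. Each of the 9 genes had at least 555 reads in every library, and no alternative varied the depth. For KO-labelled replicate 1, an effect of the library and of the label cannot be told apart.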
